A study of Mus musculus with 10 samples.

Results

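The genes described here are 38 genes of glucose uptake, glycolysis, lactate handling, pyruvate dehydrogenase control and the pentose phosphate pathway, with Hif1a and Vegfa. They were taken from the deposited count table by gene symbol, and all 38 were found among its 23284 genes and passed the filter on low counts that left 12918 genes tested. The cells were macrophages grown from C57BL/6J mouse bone marrow for 6 days in M-CSF, the growth factor that drives macrophage differentiation. They were left untreated, or received 0.03 nM or 10 nM Kdo2-lipid A for 1 h or 2 h. Kdo2-lipid A is a defined lipopolysaccharide core that activates the receptor TLR4. The 10 libraries of polyadenylated RNA fall into 5 groups, and every group has 1 library from experiment 1 and 1 from experiment 2, which the submitters describe as independent. The labels give no genetic change in any group. No untreated library at 1 h or 2 h was analysed here, so treatment and time in culture cannot be told apart in the comparisons with untreated cells. All 4 of those comparisons share the same 2 untreated libraries.

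Glucose enters the cell through SLC2A (GLUT) transporters and is trapped by hexokinase. Phosphofructokinase commits it to glycolysis, and the bifunctional PFKFB enzymes set the level of fructose 2,6-bisphosphate, the strongest activator of phosphofructokinase. Pyruvate at the end of the pathway is made into lactate and exported by SLC16A transporters, or enters mitochondria through pyruvate dehydrogenase, which PDK kinases switch off and PDP phosphatases switch on. Glucose 6-phosphate can also leave into the pentose phosphate pathway, which makes NADPH and ribose. Macrophages stimulated through TLR4 are known for a shift towards glycolysis, and HIF-1α, the product of Hif1a, is a known activator of many of these genes.

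At 10 nM 2 h, 5 genes of uptake and of the early steps rose several-fold, others of the same steps rose less, fell or were not called, and 17 members in all, among them most of the abundant enzymes of lower glycolysis, were not called. Slc2a6, Pfkfb3, Slc2a1, Hk2 and Pfkp rose 16.5-, 7.57-, 6.11-, 4.91- and 3.97-fold. Pfkfb4 and Pfkfb2 fell by 1.71 and 1.62 on the log2 scale. A gene is called changed where the adjusted p of edgeR's quasi-likelihood test, corrected over the 12918 genes, was below 0.05. By this rule 13 members were higher and 8 lower, which is 55.3% of the 38, beside 58.7% of all tested genes. Of all tested genes 28.6% were higher and 30.1% lower, so the share of members called lies near the background. The median log2 change was 0.0979 over the members and -0.0296 over all tested genes, and the median absolute change was 0.309 and 0.53 respectively.

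The members' changes depended on how libraries were scaled. With scaling by TMM, which sets the bulk of genes to no net change, the factors were 1.14 and 1.15 in untreated cells and 0.788 and 0.775 at 10 nM 2 h. Scaling by library totals alone moved the log2 changes of all genes by a median of -0.37 at 10 nM 1 h and -0.56 at 10 nM 2 h, and with it 9 members were higher and 25 lower at 10 nM 2 h. Of all tested genes 14.7% were then higher and 61.1% lower. Upper quartile scaling moved these medians by -0.17 and -0.23 and gave 10 members higher and 13 lower at 10 nM 2 h, beside 20.7% and 42.3% of tested genes. Median-of-ratios scaling gave 15 higher and 6 lower, beside 30.0% and 28.7%. Across all 4 scalings at 10 nM 2 h, 9 members were called higher each time: Slc2a1, Slc2a6, Hk2, Pfkp, Pfkfb3, Eno2, Slc16a1, Slc16a3 and Hif1a. The 6 called lower each time were Pfkm, Pfkfb2, Pfkfb4, Pdk1, Pdk2 and Pdp1. The share of all tested genes called under every scaling was not computed, so these counts have no background beside them. All values below are with TMM, and changes are thus relative to the bulk of genes. In bulk RNA, fewer cells of a type and less RNA per cell cannot be told apart.

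**Figure D1:**
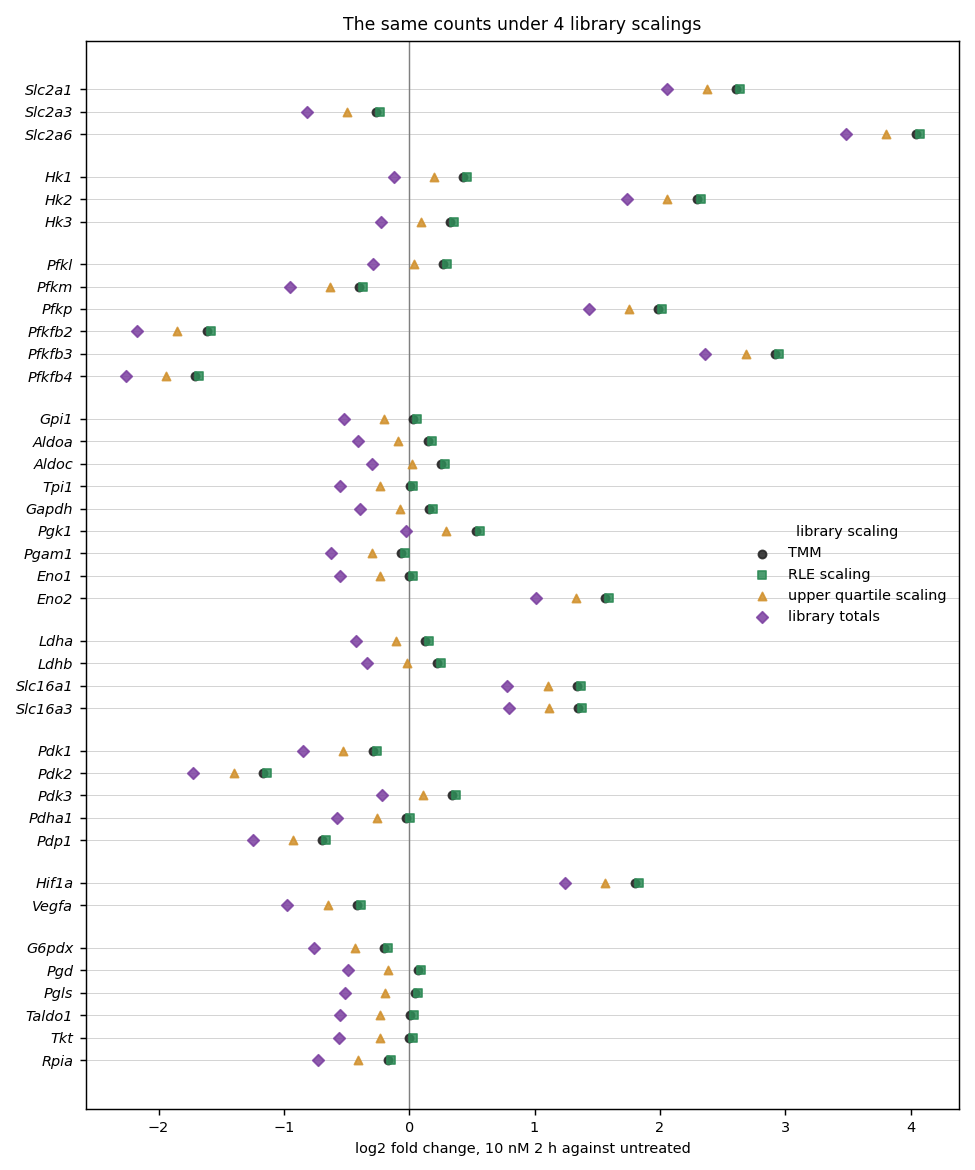
Log2 fold change at 10 nM 2 h against untreated for the 38 members (vertical axis, grouped by role) under 4 library scalings. Library totals (purple) lie about 0.56 below TMM (black) for every gene, so genes near 0 change side while Slc2a6, Pfkfb3, Slc2a1, Hk2, Pfkp, Hif1a, Pfkfb4, Pfkfb2 and Pdk2 keep theirs.

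Total counts per library ran from 33179599 to 42167096, and the members took 0.528% to 0.622% of them. Summed macrophage markers (8 genes) were at 23451 to 29866 CPM (the count relative to the library's total, scaled by TMM throughout), while summed T and NK cell markers were at 0 to 0.529 and erythroid markers at 0 to 0.362. Neutrophil markers summed to 11.5 to 15.0 CPM in untreated cells and 15.6 to 20.3 at 10 nM 2 h, stromal and endothelial markers to 40.8 to 70.4 and 60.8 to 104, and their part in the members' changes was not tested. The 0.03 nM 2 h pair stood apart: the difference between experiments there correlated with exonic length (Spearman rho -0.682 over 8126 genes, as a description, against -0.0301 to 0.371 in the other groups). In that group 26 of 38 members were higher in experiment 2, against 13 to 18 in the others.

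The promoters of the 4 members with the largest rises at 10 nM 2 h and of Pfkfb4, with the largest fall, are shown to let a reader see the sequence next to the start of genes that moved in opposite directions. Each is the 250 bases upstream of the 5′-most start listed by RefSeq (GRCm38.p6), 5′ to 3′ on the gene's strand. Capitals mark the hypoxia response core ACGTG or GCGTG on either strand (on the other strand they read CACGT and CACGC).
Slc2a6 (chr2:27027999-27028248, minus strand): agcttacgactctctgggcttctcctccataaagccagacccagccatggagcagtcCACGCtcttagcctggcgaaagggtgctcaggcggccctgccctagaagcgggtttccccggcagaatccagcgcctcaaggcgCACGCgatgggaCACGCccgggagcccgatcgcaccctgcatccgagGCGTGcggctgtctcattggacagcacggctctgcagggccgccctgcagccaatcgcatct
Pfkfb3 (chr2:11553930-11554179, minus strand): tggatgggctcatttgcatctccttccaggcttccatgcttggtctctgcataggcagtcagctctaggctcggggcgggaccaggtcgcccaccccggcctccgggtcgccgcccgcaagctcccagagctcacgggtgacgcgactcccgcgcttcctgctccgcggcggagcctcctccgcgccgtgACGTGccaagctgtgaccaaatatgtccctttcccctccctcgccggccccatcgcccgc
Slc2a1 (chr4:119108495-119108744, plus strand): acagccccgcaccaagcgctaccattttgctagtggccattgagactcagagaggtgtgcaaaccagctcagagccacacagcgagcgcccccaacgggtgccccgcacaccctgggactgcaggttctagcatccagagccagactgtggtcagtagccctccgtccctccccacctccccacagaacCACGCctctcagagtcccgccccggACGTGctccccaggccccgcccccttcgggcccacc
Hk2 (chr6:82774455-82774704, minus strand): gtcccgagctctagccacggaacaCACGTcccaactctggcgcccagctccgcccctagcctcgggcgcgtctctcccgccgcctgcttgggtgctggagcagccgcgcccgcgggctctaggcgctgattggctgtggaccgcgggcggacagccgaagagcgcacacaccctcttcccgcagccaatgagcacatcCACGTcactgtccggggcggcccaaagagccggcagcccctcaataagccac
Pfkfb4 (chr9:108991652-108991901, plus strand): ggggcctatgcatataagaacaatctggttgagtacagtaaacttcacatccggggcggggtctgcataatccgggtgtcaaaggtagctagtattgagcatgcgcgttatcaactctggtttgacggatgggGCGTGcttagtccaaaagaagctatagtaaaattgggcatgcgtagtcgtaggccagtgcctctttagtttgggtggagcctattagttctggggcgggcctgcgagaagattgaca
The Slc2a6 window held 4 such cores, those of Slc2a1 and Hk2 2 each, and those of Pfkfb3 and Pfkfb4 1 each, so the core was present beside genes that rose and beside one that fell. RefSeq listed 53 starts for 36 of the 38 members, and 43 of the 53 windows held ACGTG or GCGTG, against 38.6% of all 32851 windows of this length. Of the 53 starts, 39 opened a known transcript of their gene, the condition set for printing a window, but all 53 were counted here. ACGTG alone was in 20 of 53 against 16.57%, and GCGTG in 31 against 28.16%. The members' windows had a median of 59.6% G and C against 52.4% for all windows, and several starts belong to 1 gene, so these are descriptions with no test. The core ACGTG is also part of the E-box CACGTG, where it is counted on both strands. The counts per gene do not tell which start was used.

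Of the glucose transporters, Slc2a6 and Slc2a1 rose at 10 nM 2 h and Slc2a3 was not called. Slc2a6 encodes GLUT6, a transporter held largely inside the cell (chr2:26876885-26883518, minus strand, mm9). Its level was 35.0 and 34.1 CPM in untreated experiments 1 and 2, 48.3 and 59.7 at 0.03 nM 1 h and 99.0 and 116 at 0.03 nM 2 h. At 10 nM it reached 219 and 237 CPM at 1 h and 571 and 568 at 2 h. The 5 groups did not overlap, and both experiments gave the same order, from untreated through both low-dose times to both high-dose times. The log2 changes against untreated were 0.64 ± 0.11 (SE, adjusted p = 0.00859) and 1.64 ± 0.11 (1.39e-06) at 0.03 nM 1 h and 2 h. At 10 nM they were 2.72 ± 0.11 (3.64e-09) and 4.04 ± 0.12 (1.22e-10). Slc2a6 was the 1 member called at 0.03 nM 1 h, which is 2.63% of members beside 1.53% of tested genes (1.42% higher), and this call was lost without either untreated library or without the second 0.03 nM 1 h library (highest adjusted p over the alternatives 0.12).

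Slc2a1 encodes GLUT1, the main glucose carrier of the plasma membrane (chr4:118781350-118809934, plus strand, mm9). Untreated libraries held 28.2 and 26.3 CPM, the 0.03 nM libraries 31.5 and 30.4 at 1 h and 41.2 and 42.7 at 2 h, and the 10 nM libraries 138 and 138 and 164 and 169. Most of its change at 10 nM was thus present at 1 h (2.34 ± 0.08 log2, adjusted p = 3.82e-10), with 0.27 ± 0.07 added from 1 h to 2 h (0.00845). This later change was 0.08 and not called with library totals (adjusted p = 0.370), and the call was also lost without either 10 nM 1 h library or the second 10 nM 2 h library. At 0.03 nM 2 h it was 1.54-fold above untreated (0.000158). Slc2a3, which encodes the high-affinity transporter GLUT3, ranged from 9.68 to 12.9 CPM over all libraries, with a log2 change of -0.26 ± 0.11 at 10 nM 2 h (adjusted p = 0.0676). Levels of different genes are compared here as RPKM, the TMM-scaled CPM per kilobase of exon. Slc2a6 went from 16.2 ± 0.307 to 267 ± 0.955 RPKM (mean ± SD, n = 2) and Slc2a1 from 10.6 ± 0.510 to 64.7 ± 1.48. Slc2a6 was therefore at a level like that of the abundant enzymes by 10 nM 2 h, when Ldha stood at 184 ± 4.14 RPKM and Aldoa at 448 ± 17.2.

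**Figure D2:**
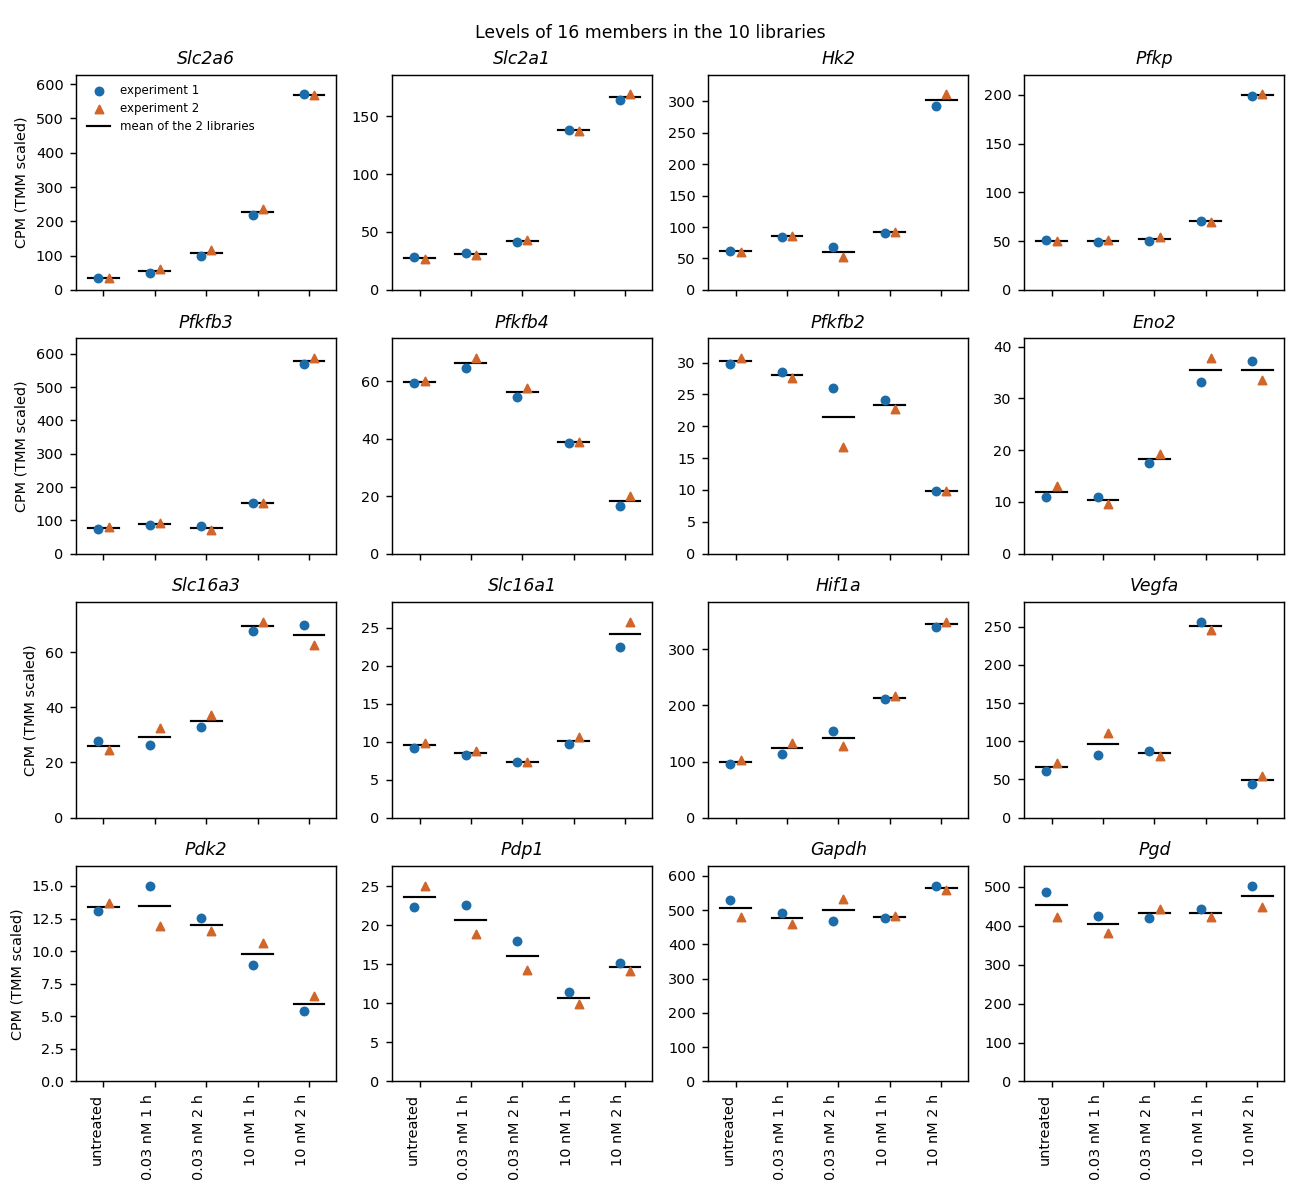
TMM-scaled CPM (vertical axes, linear, from 0) of 16 members in each group, with circles for experiment 1, triangles for experiment 2 and a bar at their mean. Slc2a6 rises through all groups, Hk2, Pfkp, Pfkfb3 and Slc16a1 rise mainly at 10 nM 2 h, Vegfa peaks at 10 nM 1 h, and Gapdh and Pgd vary little.

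All 3 hexokinase genes were higher at 10 nM 2 h with TMM, but only Hk2 by more than 2-fold. Of the 3, only Hk2 was called higher under all 4 scalings. Hk2 encodes the inducible, mitochondria-binding hexokinase (chr6:82675021-82724448, minus strand, mm9). It stood at 62.5 and 60.5 CPM untreated, 83.4 and 86.5 at 0.03 nM 1 h, 67.6 and 52.3 at 0.03 nM 2 h, 90.8 and 92.5 at 10 nM 1 h and 293 and 312 at 10 nM 2 h. With TMM, the 1 h libraries of both doses lay above the untreated ones. The difference at 10 nM 1 h was 0.58 log2 (adjusted p = 0.000954), but 0.21 and not called with library totals (0.107). From 1 h to 2 h the level at 0.03 nM fell back to values on either side of the untreated ones, and that at 10 nM rose further. The change from 1 h to 2 h was -0.50 ± 0.10 log2 at 0.03 nM (adjusted p = 0.0156) and 1.72 ± 0.11 at 10 nM (2.62e-07). The fall at 0.03 nM was not called without either 0.03 nM 1 h library or with the compared groups alone (adjusted p up to 0.161). At 0.03 nM 1 h the difference of Hk2 from untreated was 0.47 ± 0.10 (adjusted p = 0.0552), which missed the threshold. It was also not called with library totals, median-of-ratios scaling, the experiment as a block or limma on the authors' rlog values. It was called with upper quartile scaling and with DESeq2 (adjusted p = 0.00666). The fit without the 0.03 nM 2 h pair, added after seeing the data, called it too (0.000792).

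Hk1, the housekeeping hexokinase, held 86.1 and 86.2 CPM untreated, 87.4 and 84.2 at 0.03 nM 1 h, 82.0 and 93.9 at 0.03 nM 2 h, 95.1 and 89.6 at 10 nM 1 h and 113 and 119.6 at 10 nM 2 h. Hk3, a hexokinase found mostly in blood cells, held 229 and 222 CPM untreated, 231 and 237 at 0.03 nM 1 h, 223 and 241 at 0.03 nM 2 h, 247 and 252 at 10 nM 1 h and 282 and 284 at 10 nM 2 h. Only the 10 nM 2 h libraries lay above all others for both genes. Their log2 changes at 10 nM 2 h were 0.43 ± 0.08 (adjusted p = 0.000692) and 0.33 ± 0.07 (0.00149). With library totals both turned negative, to -0.12 and -0.23, where Hk1 was not called and Hk3 was called lower. Neither was called with upper quartile scaling. By length, Hk3 was the most abundant hexokinase transcript in both states, at 69.0 ± 1.36 RPKM untreated and 86.6 ± 0.471 at 10 nM 2 h. Hk2 passed Hk1 on that scale, from 11.2 ± 0.253 to 54.8 ± 2.43 RPKM against 19.1 ± 0.0192 to 25.8 ± 1.04. Exons of Hk3 overlap Unc5a on the other strand, a gene with 17 to 71 counts.

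At the phosphofructokinase step, members of the same family moved apart at 10 nM 2 h: Pfkfb3 and Pfkp rose, Pfkfb4, Pfkfb2 and Pfkm fell, and Pfkl was not called. Pfkfb3, whose product has by far the higher kinase than phosphatase activity and so raises fructose 2,6-bisphosphate (chr2:11393058-11475556, minus strand, mm9), held 73.6 and 79.4 CPM untreated. It stood at 87.2 and 92.6 at 0.03 nM 1 h, 82.5 and 71.5 at 0.03 nM 2 h, then 153 and 154 at 10 nM 1 h and 571 and 587 at 10 nM 2 h. The low-dose libraries stayed close to untreated, and the 10 nM groups lay clear of every other library. Its log2 change was 1.00 ± 0.08 at 10 nM 1 h (adjusted p = 1.83e-06) and 2.92 ± 0.09 at 10 nM 2 h (1.57e-10).

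Pfkfb4, an isozyme of the same activities (chr9:108893947-108934739, plus strand, mm9), went the other way. It held 59.3 and 60.0 CPM untreated, 64.6 and 68.1 at 0.03 nM 1 h, 54.6 and 57.7 at 0.03 nM 2 h, 38.7 and 38.9 at 10 nM 1 h and 16.6 and 19.9 at 10 nM 2 h. Both 10 nM groups lay below every other library, with log2 changes of -0.62 ± 0.09 (adjusted p = 0.000152) and -1.71 ± 0.09 (1.77e-08), the latter 3.26-fold lower. Pfkfb2, the isozyme known from heart and kidney (chr1:132585620-132625830, minus strand, mm9), held 29.8 and 30.7 CPM untreated, 28.6 and 27.6 at 0.03 nM 1 h, 26.0 and 16.8 at 0.03 nM 2 h, 24.1 and 22.7 at 10 nM 1 h and 9.92 and 9.81 at 10 nM 2 h. The 10 nM 2 h pair was lowest (-1.62 ± 0.17 log2, adjusted p = 4.96e-06). The 0.03 nM 2 h pair differed most between experiments, and its change of -0.50 ± 0.15 was not called (0.0684). This change was called with the experiment as a block (-0.52, adjusted p = 0.0456), with library totals and with upper quartile scaling. Yod1, which overlaps Pfkfb2 exons on the other strand, fell by 0.83 log2 at 10 nM 2 h (adjusted p = 0.028), and reads over the shared exons cannot be told apart, since no source used here says whether the counting used strand. In RPKM the 3 isozymes were ordered Pfkfb4 (17.7 ± 0.155), Pfkfb3 (14.5 ± 0.774) and Pfkfb2 (3.14 ± 0.0707) in untreated cells, and Pfkfb3 (109.6 ± 2.22), Pfkfb4 (5.44 ± 0.692) and Pfkfb2 (1.03 ± 0.00743) at 10 nM 2 h.

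Of the phosphofructokinase subunits, Pfkp, the platelet type (chr13:6579120-6647970, minus strand, mm9), held 50.8 and 49.8 CPM untreated, 49.2 and 50.8 at 0.03 nM 1 h, 49.9 and 53.8 at 0.03 nM 2 h, 70.8 and 70.0 at 10 nM 1 h and 198 and 201 at 10 nM 2 h. Its log2 change was 0.49 ± 0.07 (adjusted p = 0.000199) at 10 nM 1 h and 1.99 ± 0.07 (6.99e-10) at 10 nM 2 h, while no difference from untreated was called at the low dose. With library totals the change at 10 nM 1 h was 0.12 and not called (adjusted p = 0.162). Pitrm1, which shares exon sequence with Pfkp on the other strand, was itself 0.89 log2 higher at 10 nM 2 h (adjusted p = 1.4e-06), at 1227 to 2060 counts. Pfkm, the muscle type, held 17.0 and 17.7 CPM untreated, 16.2 and 14.8 at 0.03 nM 1 h, 14.5 and 14.8 at 0.03 nM 2 h, 19.1 and 17.6 at 10 nM 1 h and 15.2 and 11.2 at 10 nM 2 h. Its 10 nM 2 h libraries overlapped those of the low dose, and the called difference of -0.40 ± 0.13 (adjusted p = 0.0221) was -0.16 in experiment 1 and -0.66 in experiment 2. That call was lost without either untreated library and without the second 10 nM 2 h library (adjusted p up to 0.226). Pfkl, the liver type, ranged from 47.1 to 66.9 CPM (10 nM 2 h 0.27 ± 0.11, adjusted p = 0.0545). At 10 nM 2 h it was called higher with median-of-ratios scaling and lower with library totals. By length Pfkl and Pfkp were at 13.5 ± 0.998 and 12.6 ± 0.182 RPKM in untreated cells, a difference of the order of their spread, and at 16.2 ± 2.52 and 50.1 ± 0.419 at 10 nM 2 h.

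**Figure D3:**
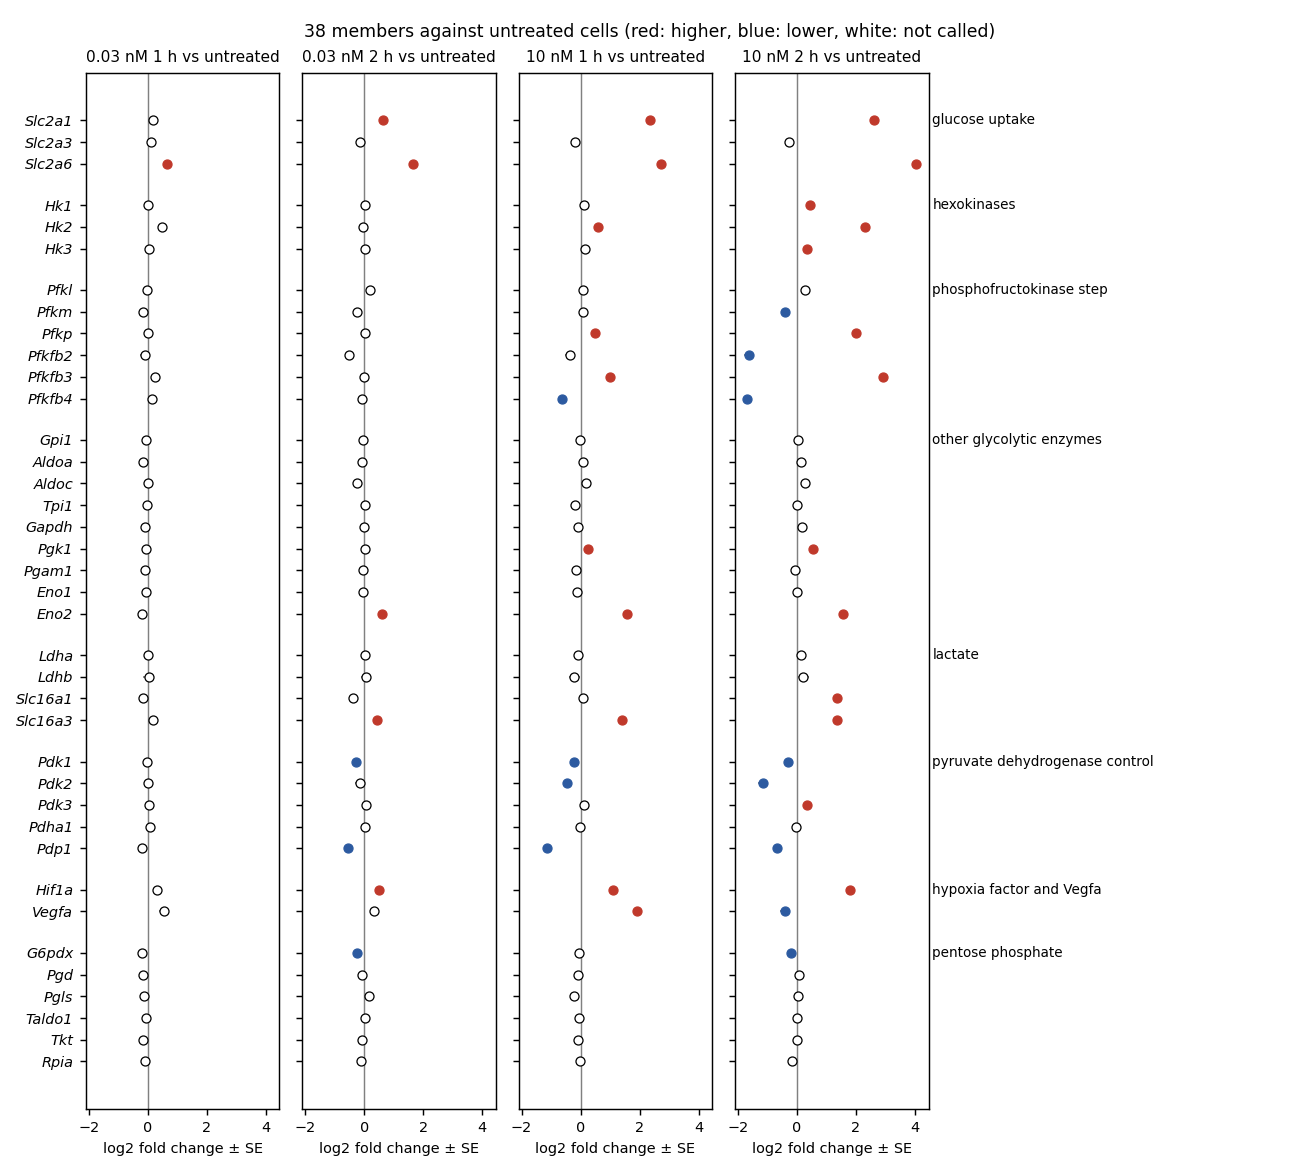
Log2 fold change against untreated (horizontal axes; bars are ± SE and are mostly shorter than the points) for the 38 members in the 4 treated groups, by role. Filled points are called by edgeR with TMM scaling: 1 member at 0.03 nM 1 h, 8 at 0.03 nM 2 h, 14 at 10 nM 1 h and 21 at 10 nM 2 h.

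Of the 9 other glycolytic enzymes, 2 rose at 10 nM 2 h and 7 were not called. Eno2, an enolase isozyme best known from neurons (chr6:124710073-124719527, minus strand, mm9), held 11.0 and 13.0 CPM untreated, 11.0 and 9.65 at 0.03 nM 1 h, 17.5 and 19.3 at 0.03 nM 2 h, 33.2 and 37.8 at 10 nM 1 h and 37.3 and 33.6 at 10 nM 2 h. Its rise at 10 nM was present at 1 h (1.57 ± 0.12 log2, adjusted p = 8.26e-07) and measured about the same at 2 h (1.56 ± 0.12, 3.9e-07), and at 0.03 nM it was called at 2 h (0.62 ± 0.12, 0.00629), though not without the first untreated library (0.0922). On the per-length scale it remained far below Eno1, the ubiquitous enolase, at 13.5 ± 0.990 against 143 ± 0.573 RPKM at 10 nM 2 h. Pgk1, phosphoglycerate kinase (chrX:103382463-103399038, plus strand, mm9), held 248 and 236 CPM untreated, 239 and 221 at 0.03 nM 1 h, 229 and 264 at 0.03 nM 2 h, 287 and 292 at 10 nM 1 h and 352 and 348 at 10 nM 2 h. The 10 nM libraries were the highest 4, and the log2 changes were 0.26 ± 0.08 at 1 h (adjusted p = 0.0283) and 0.53 ± 0.08 at 2 h (0.000146), but with library totals they were -0.11 and -0.025. The call at 1 h was also lost without any 1 of the libraries compared.

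Among the members, the glycolytic transcripts most abundant in untreated cells were not called at 10 nM 2 h. In untreated cells Gapdh was at 409.8 ± 29.7 RPKM, Aldoa at 404 ± 26.0, Ldha at 168 ± 9.71, Eno1 at 143 ± 7.37 and Pgam1 at 139.7 ± 9.22. Pgk1, which was called higher, came next at 134 ± 4.82 RPKM. At 10 nM 2 h it stood at 194 ± 1.26 RPKM, above Ldha at 184 ± 4.14. Over all 10 libraries Gapdh ranged from 460.2 to 571 CPM, Aldoa from 627 to 839.7, Eno1 from 225 to 264, Pgam1 from 219.8 to 268, Gpi1 from 290.2 to 338 and Tpi1 from 163 to 219.8. Their log2 changes at 10 nM 2 h ran from -0.07 (Pgam1) to 0.16 (Gapdh), with SEs of 0.08 to 0.11, and none was called with TMM. With library totals all 6 were called lower, for example Gapdh at -0.40 and Eno1 at -0.56. Within 10 nM, Gapdh rose from 1 h to 2 h by 0.23 ± 0.08 (adjusted p = 0.0411). That call was lost in 9 of 19 alternatives, among them the omission of any 1 of the 4 libraries compared (adjusted p up to 0.705). Aldoc, a minor aldolase, was between 9.35 and 14.6 CPM, namely 11.7 and 10.9 untreated, 11.5 and 11.3 at 0.03 nM 1 h, 9.80 and 9.35 at 0.03 nM 2 h, 12.9 and 13.0 at 10 nM 1 h and 14.6 and 12.4 at 10 nM 2 h, and it was called only between doses at 2 h (0.50 ± 0.11, 0.00289), a call lost with library totals and upper quartile scaling. At 10 nM 2 h against untreated, Aldoc was called higher with median-of-ratios scaling and lower with library totals. Exons of Tpi1 overlap Spsb2 on the other strand, which fell by 2.13 log2 at 10 nM 2 h (adjusted p = 3.07e-08) at 227 to 1419 counts, so reads over the shared exons cannot be told apart. Gapdh, Ldha, Pgk1, Tpi1 and Aldoa have many processed pseudogenes, so their counts are uncertain where reads could map to these copies.

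Among lactate genes, both transporters rose, at different times, while Ldha and Ldhb were not called. Slc16a3 encodes MCT4, the lactate exporter of glycolytic cells (chr11:120809798-120820314, plus strand, mm9). It held 27.7 and 24.3 CPM untreated, 26.2 and 32.5 at 0.03 nM 1 h, 32.7 and 37.1 at 0.03 nM 2 h, 67.7 and 71.0 at 10 nM 1 h and 69.9 and 62.8 at 10 nM 2 h. Its rise at 10 nM was 1.41 ± 0.12 log2 at 1 h (adjusted p = 1.43e-06) and 1.35 ± 0.12 at 2 h (9.83e-07). Slc16a1, which encodes MCT1, a carrier of lactate and pyruvate in either direction (chr3:104442591-104462385, plus strand, mm9), held 9.22 and 9.84 CPM untreated, 8.27 and 8.72 at 0.03 nM 1 h, 7.36 and 7.32 at 0.03 nM 2 h, 9.66 and 10.7 at 10 nM 1 h and 22.5 and 25.8 at 10 nM 2 h. Only the 10 nM 2 h libraries lay well above the others (1.34 ± 0.11, adjusted p = 7.54e-07), and at 10 nM 1 h the difference was 0.09 ± 0.11 (0.576). Ldha, which makes lactate from pyruvate, ranged from 301 to 360.1 CPM and Ldhb from 5.03 to 7.49.

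In the control of pyruvate dehydrogenase, 3 of 5 members fell at 10 nM 2 h and 1 rose. Pdk2, a kinase that switches the complex off (chr11:94887572-94902685, minus strand, mm9), held 13.1 and 13.7 CPM untreated, 15.0 and 11.9 at 0.03 nM 1 h, 12.5 and 11.5 at 0.03 nM 2 h, 8.96 and 10.7 at 10 nM 1 h and 5.42 and 6.53 at 10 nM 2 h. The 10 nM groups lay below all others, with log2 changes of -0.45 ± 0.14 (adjusted p = 0.0291) and -1.16 ± 0.15 (3.49e-05). The call at 1 h was lost without either untreated library or the first 10 nM 1 h library (adjusted p up to 0.214). Pdp1, the phosphatase that switches the complex on (chr4:11885332-11893597, minus strand, mm9), also fell. It held 22.3 and 25.0 CPM untreated, 22.5 and 18.9 at 0.03 nM 1 h, 17.9 and 14.3 at 0.03 nM 2 h, 11.4 and 9.94 at 10 nM 1 h and 15.1 and 14.2 at 10 nM 2 h, lowest at 10 nM 1 h (-1.15 ± 0.14 log2, adjusted p = 3.7e-05) and partly back at 2 h (0.46 ± 0.14 from 1 h to 2 h, 0.0215). The call from 1 h to 2 h was lost with library totals (0.27) and without the second 10 nM 1 h or either 10 nM 2 h library (adjusted p up to 0.157).

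Pdk1 and Pdk3, kinases of the same family, changed by less. At 10 nM 1 h the call of Pdk1 (-0.23 ± 0.08, adjusted p = 0.0350) was lost in 8 of 19 alternatives. Among these were no filter, DESeq2 and the omission of any 1 of the 4 libraries compared. Pdk1 held 46.3 and 46.8 CPM untreated, 47.6 and 43.8 at 0.03 nM 1 h, 38.6 and 38.8 at 0.03 nM 2 h, 40.5 and 39.1 at 10 nM 1 h and 38.6 and 37.5 at 10 nM 2 h (-0.29 ± 0.08 log2, adjusted p = 0.00594). Pdk3 held 12.0 and 12.2 CPM untreated, 12.0 and 12.7 at 0.03 nM 1 h, 12.9 and 12.1 at 0.03 nM 2 h, 13.5 and 12.6 at 10 nM 1 h and 15.7 and 14.9 at 10 nM 2 h. Its rise at 10 nM 2 h (0.34 ± 0.10, 0.0114) became -0.21 with library totals and was not called with upper quartile scaling. It also missed the threshold when 1 of 3 libraries (each untreated one and the first at 10 nM 2 h) was left out. The call of Pdk3 between doses at 2 h (0.29, adjusted p = 0.0272) was lost in 7 of 18 alternatives. Pdha1, the catalytic subunit gene of the complex, ranged from 62.9 to 69.8 CPM and was called in no comparison with TMM. With library totals and with upper quartile scaling it was called lower at 10 nM 1 h and at 10 nM 2 h.

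Hif1a and Vegfa rose together at 10 nM 1 h and parted at 2 h. Hif1a (chr12:75008854-75048517, plus strand, mm9) held 94.8 and 103 CPM untreated, 114 and 133 at 0.03 nM 1 h, 155 and 128 at 0.03 nM 2 h, 211 and 216 at 10 nM 1 h and 340.0 and 349 at 10 nM 2 h. Every treated library was above both untreated ones, and the log2 changes were 0.52 ± 0.10 at 0.03 nM 2 h (adjusted p = 0.00642), 1.11 ± 0.10 at 10 nM 1 h (4e-06) and 1.80 ± 0.10 at 10 nM 2 h (2.99e-08). The call at 0.03 nM 2 h was lost without the first untreated library and with the compared groups alone (adjusted p up to 0.0885). Vegfa, a secreted growth factor of blood vessels and a known HIF-1 target (chr17:46153943-46169326, minus strand, mm9), held 61.1 and 71.2 CPM untreated, 81.7 and 111 at 0.03 nM 1 h, 87.4 and 81.2 at 0.03 nM 2 h, 257 and 245 at 10 nM 1 h and 44.2 and 55.1 at 10 nM 2 h. It was 3.79-fold above untreated at 10 nM 1 h (1.92 ± 0.15 log2, adjusted p = 2.65e-06) and 5.05-fold lower at 2 h than at 1 h (-2.34 ± 0.15, 1.12e-06), the fall that ended below every other library. The difference from untreated at 10 nM 2 h (-0.41 ± 0.15, 0.0342) was not called with median-of-ratios scaling, with limma on the authors' rlog values, without the 0.03 nM 2 h pair (adjusted p = 0.104), or without 1 of 4 single libraries (the second untreated, the first 10 nM 2 h and each 0.03 nM 2 h library).

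Of the 6 pentose phosphate genes, 1 fell at 10 nM 2 h and 5 were not called. G6pdx, which encodes the glucose 6-phosphate dehydrogenase that opens the pathway (chrX:71654825-71674500, minus strand, mm9), held 285 and 272 CPM untreated, 252 and 234 at 0.03 nM 1 h, 232 and 234 at 0.03 nM 2 h, 276 and 262 at 10 nM 1 h and 245 and 240.1 at 10 nM 2 h. Both 2 h groups and the 0.03 nM 1 h group lay below untreated, and it was called lower at 0.03 nM 2 h (-0.26 ± 0.07 log2, adjusted p = 0.0418) and 10 nM 2 h (-0.20 ± 0.07, 0.0296). The second call was lost with median-of-ratios scaling, with DESeq2 and without any 1 of the 4 libraries compared (adjusted p up to 0.167). The other 5 genes, Pgd, Pgls, Taldo1, Tkt and Rpia, were called in no comparison with TMM. With library totals all 5 were called lower at 10 nM 1 h and at 10 nM 2 h. With upper quartile scaling Tkt and Pgls were called lower at 10 nM 1 h, and Rpia at 10 nM 2 h. Pgd, the second NADPH-making enzyme, ranged from 382 to 502 CPM, and the transfer enzymes Taldo1 and Tkt from 264 to 319 and 224 to 269. Pgls, the lactonase, ranged from 25.4 to 39.1 and Rpia, the isomerase of ribose 5-phosphate, from 7.98 to 10.0 CPM. In RPKM, Taldo1 (226 ± 10.4) and Pgd (204 ± 20.3) were among the 4 most abundant members in untreated cells, after Gapdh and Aldoa.

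Across the groups, the number of members called grew with dose and time. So did the share of all tested genes, from 1.53% at 0.03 nM 1 h to 58.7% at 10 nM 2 h. At 0.03 nM 2 h, 5 members were higher and 3 lower (21.1% of members, beside 9.82% of tested genes, 6.45% higher and 3.37% lower): Slc2a1, Slc2a6, Eno2, Slc16a3 and Hif1a against Pdk1, Pdp1 and G6pdx. This count rests on libraries that stood apart, and it was 12 without the first and 5 without the second 0.03 nM 2 h library, beside 23.7% and 9.15% of all genes tested in those fits. It was 2 and 4 without the first and second untreated library (beside 5.06% and 4.93%), 5 without any 1 of the 10 nM libraries (beside 7.81% to 8.34%), and 3 (beside 5.25%) when only the groups compared were fitted. The calls of Pdk1, G6pdx and Slc16a3 were each lost in at least 10 of 18 alternatives, those of Pdp1, Hif1a and Eno2 in 4, 2 and 1, and those of Slc2a1 and Slc2a6 in none. At 10 nM 1 h, 10 members were higher and 4 lower (36.8%, beside 36.9% of tested genes, 18.5% higher and 18.3% lower). At that time 7 members were called higher under all 4 scalings, namely Slc2a1, Slc2a6, Pfkfb3, Eno2, Slc16a3, Hif1a and Vegfa, and 4 lower, namely Pfkfb4, Pdk1, Pdk2 and Pdp1. For these counts, too, the share of all tested genes was not computed.

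Compared directly, 10 nM exceeded 0.03 nM for 9 members and lay below it for 3 at 1 h (31.6%, beside 35.3% of tested genes, 18% higher and 17.3% lower). At 2 h it did so for 14 and 4 (47.4%, beside 52.8% of tested genes, 25.6% higher and 27.2% lower). The largest dose differences at 1 h were those of Slc2a1 (2.15 ± 0.07 log2, adjusted p = 1.17e-09), Slc2a6 (2.08 ± 0.11), Eno2 (1.78 ± 0.12) and Vegfa (1.38 ± 0.15). At 2 h they were those of Pfkfb3 (2.91 ± 0.09, adjusted p = 5.52e-10), Slc2a6 (2.40 ± 0.11), Hk2 (2.33 ± 0.11) and Slc2a1 (1.99 ± 0.07). Over all 9 comparisons, 104 member calls were made, and all 104 had the same sign in both experiments. With 2 libraries a group, a call all but requires such agreement, so this is not separate support for the calls. The 15 members called in none of the 9 with TMM were Slc2a3, Pfkl, Gpi1, Aldoa, Tpi1, Pgam1, Eno1, Ldha, Ldhb, Pdha1, Pgd, Pgls, Taldo1, Tkt and Rpia, and their highest library was 1.11 to 1.54 times their lowest.

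From 1 h to 2 h, members followed different courses at the high dose. At 10 nM 11 members rose and 5 fell (42.1%, beside 42.8% of tested genes, 21.3% higher and 21.5% lower), led by Vegfa (-2.34 ± 0.15), Pfkfb3 (1.92 ± 0.09), Hk2 (1.72 ± 0.11), Pfkp (1.50 ± 0.07) and Slc2a6 (1.32 ± 0.11 log2). At 0.03 nM 3 rose and 1 fell (10.5%, beside 5.11% of tested genes, 3.51% higher and 1.59% lower): Slc2a6 (1.00 ± 0.11), Eno2 (0.83 ± 0.12), Slc2a1 (0.44 ± 0.07) and, falling, Hk2. The count at 0.03 nM was 9 without the first 0.03 nM 2 h library (23.7%, beside 21.5% of all genes tested in that fit) and 2 with the compared groups alone (5.26%, beside 1.59%). That at 10 nM was 10 without the second 10 nM 2 h library (26.3%, beside 33.3%). The test of the difference between these time courses called 10 members (26.3%, beside 22% of tested genes, 10.4% higher and 11.6% lower), 6 with a more positive change at 10 nM and 4 with a more negative one. Slc2a6 was not among them: it rose at both doses, and the difference was 0.32 ± 0.15 log2 (adjusted p = 0.156).

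**Figure D4:**
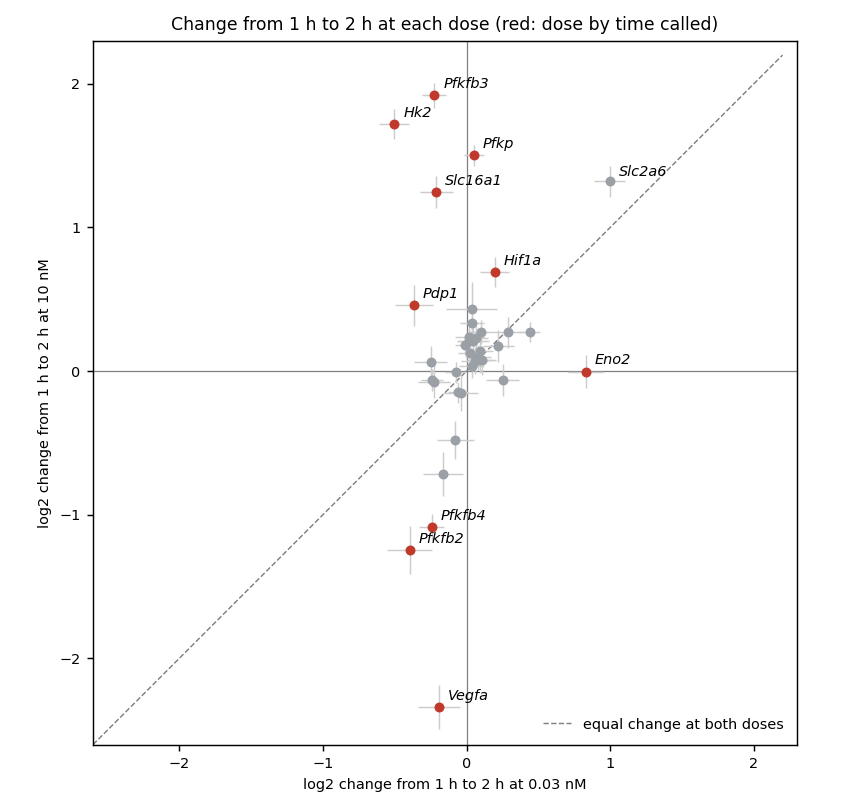
Log2 change from 1 h to 2 h at 0.03 nM (horizontal axis) against that at 10 nM (vertical axis) for the 38 members, with ± SE bars; the dashed line marks equal changes. The 10 red genes were called for the difference between doses, with Pfkfb3, Hk2, Pfkp and Slc16a1 high above the line, Vegfa far below it and Eno2 to its right.

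Other genes of the pathway, from a list of 66 symbols of which 61 were in the table and 46 were tested, gave 8 higher and 10 lower at 10 nM 2 h, which is 39.1%, beside 58.7% of all tested genes (28.6% higher and 30.1% lower). Their median log2 change was -0.04, beside -0.03 over all tested genes. With library totals 4 of the 46 were higher and 37 lower, beside 14.7% and 61.1% of all tested genes. Gpd2, the mitochondrial glycerol 3-phosphate dehydrogenase that passes cytosolic electrons to the respiratory chain, went from 20.3 to 173 CPM (3.09 ± 0.14 log2, adjusted p = 4.82e-09). Slc16a10, an aromatic amino acid transporter of the MCT family, went from 125 to 329 CPM (1.40 ± 0.08) and Minpp1, an inositol phosphate phosphatase that also acts on bisphosphoglycerate, from 25.8 to 73.1 (1.50 ± 0.11). Dld, a subunit of pyruvate dehydrogenase and related complexes, rose by 0.82 ± 0.07. Shpk, the sedoheptulose kinase of the pentose phosphate pathway also known as CARKL, fell from 199 and 185 counts in the untreated libraries to 18 and 17 at 10 nM 2 h (-2.97 ± 0.25, adjusted p = 7.05e-07). H6pd, the glucose 6-phosphate dehydrogenase of the endoplasmic reticulum, changed by -0.62 ± 0.07.

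A list of 26 genes of the HIF pathway and its known targets, 23 of them tested, gave 8 higher and 6 lower at 10 nM 2 h, with a median of -0.08. This is 60.9% of the list, near the background of 58.7% of all tested genes. With library totals 6 were higher and 12 lower, beside 14.7% and 61.1% of all tested genes. Adm, which encodes adrenomedullin, had 2 and 4 counts in untreated libraries, 300 and 351 at 10 nM 1 h and 340 and 347 at 10 nM 2 h. Ak4, a mitochondrial adenylate kinase, changed by 2.63 ± 0.25 log2, Ero1l, an oxidase of the endoplasmic reticulum, by 1.55 ± 0.13, Ndrg1, a stress-responsive gene, by 1.17 ± 0.07 and P4ha1, a collagen prolyl hydroxylase subunit, by 0.79 ± 0.08. Kdm3a, a histone demethylase known as a hypoxia target, fell by 1.43 ± 0.10. These 12 named genes of both lists were called in the same direction under all 4 scalings.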

How the data were processed

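Per the labels, polyadenylated RNA was made into libraries with the NEBNext Ultra Directional kit. Tools named in the submitters' processing notes are featureCounts (1.4.5-p1, with Subread), TopHat2 (2.0.11), DESeq2 and bcl2fastq (2.15.0.4), with mm9 as the build. No source used here gives the strand setting or the gene annotation. The authors deposited raw counts per gene, with columns as featureCounts writes them per the file headers, and log2 (rlog) values of the same genes, which were used only for an alternative fit.

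Raw counts were tested with edgeR 4.0.16 in R 4.3.3: filterByExpr, TMM scaling, and 1 robust quasi-likelihood model with a mean per group over all 10 libraries (5 residual degrees of freedom). Benjamini-Hochberg adjustment ran over 12918 genes in each of 9 comparisons. The SE of a log2 fold change is its size divided by the square root of the F statistic. RPKM uses the exonic length in the count table. Gene positions are those of the count table, from its lowest start to its highest end.

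Alternatives were 3 other scalings, no filter, the experiment as a block, each library left out, the compared groups alone, DESeq2 1.42.0, limma 3.58.1 on the rlog values and, added after seeing the data, the fit without the 0.03 nM 2 h pair. The experiment number in the labels pairs the libraries. Deviations of same-numbered libraries correlated at -0.261 to 0.503 between groups (median 0.159, above 0.1 in 6 of 10 pairs of groups). The members and gene lists were chosen with earlier results of these data known. Values in every library are given for the 22 members called in a comparison with untreated cells or between doses, ordered by role, and the other members by range. Of the other pathway and HIF lists, the 6 genes each with the smallest adjusted p at 10 nM 2 h are named. Promoter windows are RefSeq's (GRCm38.p6), matched by symbol. A window was printed only where the first 20 bases after its start lie in the first 400 bases of a GENCODE transcript of that gene, a condition added after seeing the windows.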

Additional observations from a re-analysis of the deposited data

Results flagged for a closer look

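For 10 members the change from 1 h to 2 h differed between doses by edgeR's quasi-likelihood interaction test. Given as the log2 change at 10 nM minus that at 0.03 nM, it was 2.22 ± 0.15 for Hk2 (SE, adjusted p = 2.54e-06), 2.14 ± 0.12 for Pfkfb3 (8.85e-07), 1.46 ± 0.16 for Slc16a1 (7.55e-05) and 1.45 ± 0.10 for Pfkp (3.26e-06). In these 4 genes the level rose at 10 nM and not at 0.03 nM. It was 0.82 ± 0.20 for Pdp1 (0.0102), the pyruvate dehydrogenase phosphatase, which regained part of its level at 10 nM (a call from 1 h to 2 h lost in 4 of 19 alternatives), and 0.49 ± 0.14 for Hif1a (0.0288). It was -2.14 ± 0.21 for Vegfa (6.31e-05), which fell steeply at 10 nM, -0.85 ± 0.23 for Pfkfb2 (0.0192) and -0.84 ± 0.13 for Pfkfb4 (0.000642). For Eno2 it was -0.83 ± 0.17 (0.00407): its rise from 1 h to 2 h was at 0.03 nM, and at 10 nM the level was already high at 1 h.

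The 0.03 nM 2 h pair, which stood apart by exonic length, enters each of these differences. Each library of the pair was left out in turn among the alternatives below, but this test cannot be run without both. The part of the pattern by length in these differences was not tested. Of the 10, the calls of Hk2, Pfkfb3, Slc16a1, Pfkp, Vegfa, Pfkfb4 and Eno2 were kept in every one of 18 alternatives. Pdp1 was lost without the second 10 nM 1 h library (adjusted p = 0.054), Pfkfb2 without any of 4 single libraries (up to 0.072), and Hif1a with library totals and without any of 6 single libraries (up to 0.128).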

How the results depend on the processing

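Of the 104 member calls, 83 were kept with library totals (12 lost, 9 turned), 102 with median-of-ratios scaling, 92 with upper quartile scaling, 99 with no filter, 101 with DESeq2, 103 with limma on rlog values, 96 with the compared groups alone, and 89 to 103 without 1 library. The replicate block kept all 104 calls, and the pairing added Pfkfb2 at 0.03 nM 2 h (9 members called against 8) and changed no other call of a member. The 9 turned values, all with library totals, were Pgk1 at 10 nM 1 h (-0.11), 10 nM 2 h (-0.025) and between doses at 1 h (-0.026), and Hk1 (-0.12, -0.085), Hk3 (-0.23, -0.20) and Pdk3 (-0.21, -0.19) at 10 nM 2 h against untreated and against 0.03 nM. With library totals 31 members were called at 10 nM 1 h, 34 at 10 nM 2 h, 30 between doses at 1 h and 33 at 2 h (beside 62.2%, 75.9%, 60.3% and 72.5% of tested genes), and with upper quartile scaling 24 at 10 nM 1 h (beside 44.6%). At 0.03 nM 1 h, 2 were called with upper quartile scaling (beside 1.54% of tested genes), with no filter (1.3%) and with the compared groups alone (1.34%). Without the 0.03 nM 2 h pair 2 were also called (1.85%), and with DESeq2 3 (2.02%). The compared groups alone gave 3 at 0.03 nM 2 h (beside 5.25%) and 2 from 1 h to 2 h at 0.03 nM (beside 1.59%). Leaving out each library gave, with the range of the share of all tested genes in brackets, 0 to 3 members at 0.03 nM 1 h (0.591% to 1.90%), 2 to 12 at 0.03 nM 2 h (4.93% to 23.7%), 11 to 18 at 10 nM 1 h (25.7% to 44.1%), 17 to 23 at 10 nM 2 h (49.2% to 62.4%), 11 to 17 and 17 to 20 between doses at 1 h and 2 h (24.8% to 42.2% and 43.0% to 53.1%), 3 to 9 and 10 to 21 from 1 h to 2 h at 0.03 nM and 10 nM (2.16% to 21.5% and 30.5% to 49.0%), and 8 to 14 for the difference between these time courses (14.4% to 27.6%). The highest counts came without a 0.03 nM 2 h library, and a lone library in a group was assumed to vary like the others. With 2 libraries a group, the smallest change called at 10 nM 2 h was -0.20 (G6pdx).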
